A study of Capsicum annuum with 12 samples.

Results

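The regions described here are the broad H3K4me3 intervals of young pepper leaves (Capsicum annuum, cultivar 59). A broad interval is a stretch of at least 2000 bp that lay inside peaks of both H3K4me3 libraries and held no base covered in both H3K27me3 libraries. There were 1235 of them among 31596 shared H3K4me3 intervals on the 12 chromosomes, which is 3.91%, and they held 3.23 Mb, 11.6% of the 27.7 Mb of shared H3K4me3 bases. They are set against the 20491 shared H3K4me3 intervals of 500 to 1500 bp, called short intervals below. The study mapped 3 histone marks by chromatin immunoprecipitation sequencing (ChIP-seq) as part of work on the spatial folding of the pepper genome. All libraries came from cross-linked young leaf of the same cultivar, with no treatment named in the labels. There were 2 libraries each for H3K4me3, H3K27me3 and H3K9me2, each with an input. The labels do not say whether the 2 libraries of a mark came from separate plants, so the spread between them may be technical.

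H3K4me3 is trimethylation of lysine 4 on histone H3, placed by methyltransferases of the Trithorax group and found around the start and first part of transcribed genes. Most genes carry a narrow band of it. In mammals, unusually wide bands are known from genes that define the identity of a cell. H3K27me3 is placed by Polycomb proteins on silenced genes, and H3K9me2 marks silent transposons and other repeats in plants.

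The broad intervals were chosen by their width in the H3K4me3 libraries and their lack of shared H3K27me3 bases, so their width, their H3K4me3 enrichment and their freedom from H3K27me3 are descriptions. Fold enrichment, summit and peak limits come from the same peaks as the width. With 2 libraries a mark, and regions of 1 genome that are not replicates, no test was made for any comparison below, and each difference is set beside the spread between libraries. No gene was assigned to an interval, since the gene table at hand belongs to another assembly, and the leaf origin of the libraries was not checked against marker genes.

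Breadth was found again from library to library for most peaks. The 2 H3K4me3 lists held 1643 and 1634 peaks of at least 2000 bp on the chromosomes, 4.77% and 4.83% of their peaks. Every one of them met a peak in the other list. In the other list that peak also reached 2000 bp for 81.2% of those chosen in replicate 1 and for 81.8% of those chosen in replicate 2. The median width of peaks chosen in replicate 1 was 2434 bp there and 2391 bp in replicate 2, and the median of peaks chosen in replicate 2 was 2445 bp there and 2384.5 bp in replicate 1. A peak of one list was split into several in the other for 180 and 167 of them. Each broad interval rested on 1 peak of either list, as did all 31596 shared intervals. This follows from how they were made, since no peaks of a list overlapped or touched. How the caller set the extent of a peak was not examined. The outer limits of the peaks under broad intervals differed between libraries by a median of 39 bp at the low-coordinate end and 40 bp at the other. For short intervals these medians were 33 and 34 bp.

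The widths of the broad intervals fell away steeply above the threshold. Their median was 2432 bp, with 10% below 2070 bp and 10% above 3394 bp. Of the 1235, 562 reached 2500 bp, 240 reached 3000 bp, 42 reached 4000 bp and 8 reached 5000 bp. Intervals on either side of the threshold were alike in fold. The 3 shortest members, of 2000 bp each, lay on chromosome 2 at 156762606 to 156764605, on chromosome 4 at 232351752 to 232353751 and on chromosome 11 at 226460374 to 226462373, with a mean fold of 44.3, 70.2 and 42.4. The 3 longest intervals below the threshold, each 1 or 2 bp short of it, had a mean fold of 87.8, 36.8 and 45.05, and lay on chromosome 2 at 170598194 to 170600192 and on chromosome 1 at 234002685 to 234004682 and at 260871322 to 260873319.

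Broad intervals were also strongly enriched ones. The authors' fold at the highest summit, a linear ratio over the local background, had a median of 80.1 in replicate 1 and 65.9 in replicate 2 for broad intervals, against 41.5 and 37.9 for short intervals. Over the libraries this is 73.0 ± 10.0 for broad and 39.7 ± 2.54 for short intervals (mean ± SD of 2 library medians), a gap larger than the spread between libraries. The fold of broad intervals was the higher on 12 of 12 chromosomes in either replicate. A mean fold above 100 was found for 425 broad intervals (34.4%) and for 16.2% of short intervals, and a mean fold below 25 for 110 broad intervals (8.91%) and 32.5% of short ones. Depth over the summits followed: the median was 260.5 and 268 fragments for broad intervals, against 123 and 129 for short ones. The local background that the caller expected at the summit was higher too, at 2.30 and 3.01 fragments for broad and 1.74 and 2.51 for short intervals in replicates 1 and 2. It sat at the lowest value of the library for 13.9% and 11.5% of broad intervals, against 25.7% and 23.5% of short ones. Its part in the width of the intervals was not tested.

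Median fold rose with width on both sides of the threshold, with little change across it. Among intervals without shared H3K27me3 bases, the median fold was 9.15 and 8.52 between 250 and 500 bp, 35.7 and 32.9 between 500 and 1000 bp, and 61.7 and 54.7 between 1000 and 1500 bp. From 1500 to 2000 bp it was 70.6 and 61.3, and from 2000 to 2500 bp 71.0 and 61.7. From 2500 to 3000 bp it was 82.1 and 67.1, and from 3000 to 4000 bp 90.1 and 72.7. The 42 intervals of 4000 bp or more had 136 and 98.2. Among the broad intervals alone, width and mean fold were weakly related (Spearman's rho 0.113, Pearson's r 0.118, 1235 intervals of the same 2 libraries), against a rho of 0.672 and an r of 0.433 over the 31377 shared intervals with a summit inside. The broad set covers a narrower range of widths than all shared intervals, so these coefficients are not directly comparable. Weak intervals were found among the broad ones, 110 of which had a mean fold below 25.

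The 2 libraries gave nearly the same depth but not the same fold at a broad interval. Fragments over the summit had a rho of 0.990 between libraries (r 0.975, 1227 intervals with a summit inside in both), fold one of 0.848 (r 0.744) and local background one of 0.248 (r 0.231). The median ratio of replicate 1 to replicate 2 was 0.985 for fragments, 1.15 for fold and 0.819 for background. Fold was higher in replicate 1 at 787 of the 1227 and background higher in replicate 2 at 846.

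**Figure D1:**
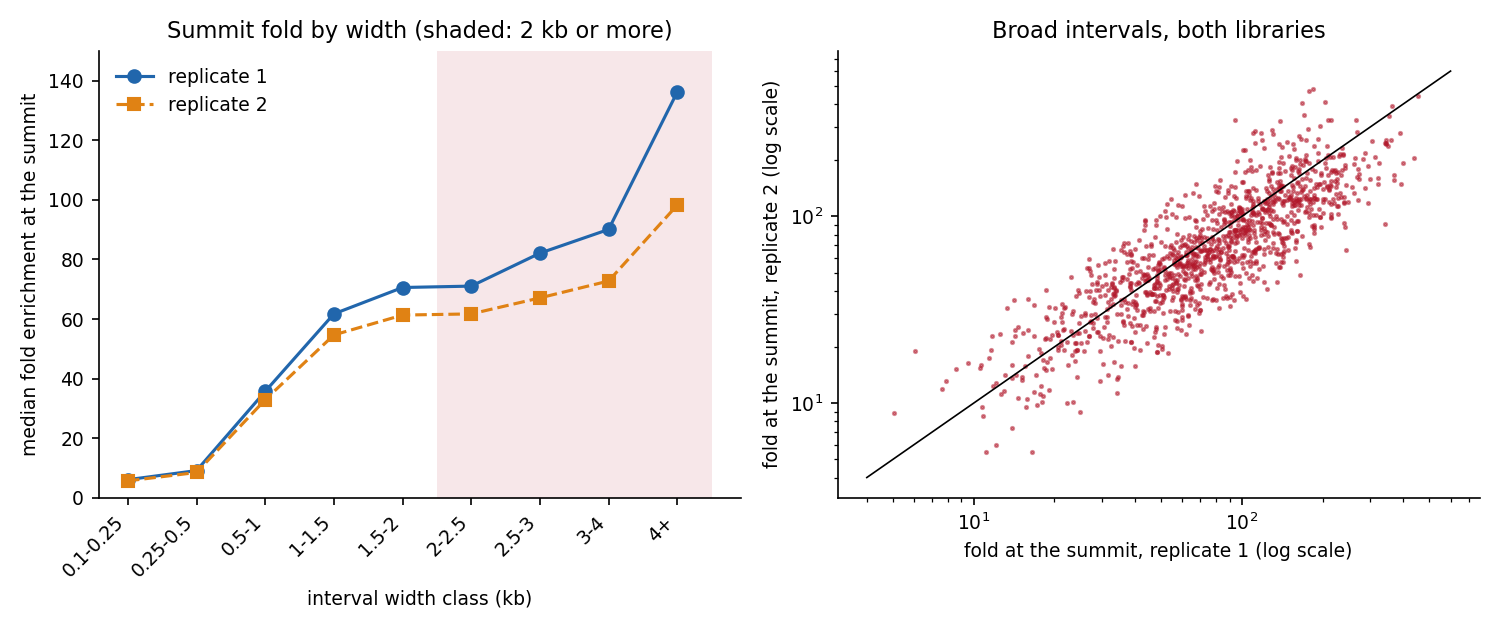
Left, median fold enrichment at the summit (linear, y) of shared H3K4me3 intervals without shared H3K27me3 bases by width class (kb, x), a point per library, with classes of 2 kb or more shaded. The curves climb to 70.6 and 61.3 just below 2 kb and reach 136 and 98.2 in the widest class. Right, fold of each broad interval in replicate 2 (y) against replicate 1 (x), both on log scales, with the line of equality; 787 of 1227 lie below it.

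The 10 longest broad intervals lay on 7 chromosomes, and 9 of them had a mean fold above 100. The first, 7212 bp on chromosome 2 at 161562310 to 161569521, had a fold of 227 in replicate 1 and 158 in replicate 2, with 647 and 631 fragments over the summit. Its summits lay 1 bp apart, 1269 and 1268 bp from the nearer end and 5942 and 5943 bp from the other. The second, 6487 bp on chromosome 4 at 47526706 to 47533192, had a fold of 156 and 161 and 427 fragments in each library. Its summits were 1111 and 1119 bp from the nearer end. Both were thus lopsided, with a strong summit near one end. The third, 6451 bp on chromosome 3 at 256928485 to 256934935, had a fold of 216 and 155 and summits 977 and 1008 bp from the nearer end.

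The next intervals by length showed the same lopsided form or a more central summit. On chromosome 12 at 13065454 to 13071407 (5954 bp) the fold was 209 and 167, with the summits 352 and 345 bp from the nearer end and 5601 and 5608 bp from the other. On chromosome 7 at 238770215 to 238775178 (4964 bp) the fold was 233 and 215, with the summits 323 and 319 bp from the nearer end. These 2 had their summits closest to an end among the 10. On chromosome 5 at 4319437 to 4325259 (5823 bp) the fold was 344 and 243, the highest mean of the 10, at 294. On chromosome 12 at 5010208 to 5015558 (5351 bp) it was 139 and 137, with summits 1951 and 1947 bp from the nearer end.

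The 3 of the 10 on chromosome 10 differed most between libraries as a ratio of their folds, while the chromosome 5 interval had the largest SD, 71.1. From 242377791 to 242383166 (5376 bp) the fold was 140 in replicate 1 and 63.0 in replicate 2, though 460 and 441 fragments lay over the summit, with a local background of 2.30 and 6.02. From 4264544 to 4269782 (5239 bp) it was 196 and 99.3, with 646 and 596 fragments and a background of 2.30 and 5.01. Depth was near equal, and background was higher in replicate 2, at both. The third, at 819987 to 824907 (4921 bp), was the weakest of the 10, with a fold of 39.99 and 15.8 from 108 and 102 fragments, and its summits lay 1200 bp apart.

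The broad intervals of highest fold were not the longest. The 5 highest lay on chromosomes 3, 8 and 2, and 4 of them were shorter than the median broad interval. On chromosome 3 at 227531923 to 227533993 (2071 bp) the fold was 453 and 444, with 1754 and 2222 fragments over the summit. This interval stood apart from other H3K4me3 intervals, with the next 453651 bp away. The nearest shared H3K27me3 interval was 831102 bp away and the nearest shared H3K9me2 interval 32590 bp away. On chromosome 8 at 156185821 to 156187859 (2039 bp) the fold was 364 and 389, and on the same chromosome at 163962255 to 163964548 (2294 bp) it was 390 and 280. On chromosome 2 at 167832320 to 167834367 (2048 bp) the fold was 355 and 347. The fifth, on chromosome 2 at 171291361 to 171294720 (3360 bp), had 184 and 482 (mean 333 ± 210, SD, n = 2), with 713 and 1243 fragments, so its place rests on replicate 2.

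At the other end, the 5 broad intervals of lowest mean fold all lay below 10. The weakest, on chromosome 6 at 18370280 to 18372523 (2244 bp), had a fold of 5.03 and 8.82 from 33 and 27 fragments, with summits 1651 bp apart and another H3K4me3 interval 297 bp away. On chromosome 5 at 11915421 to 11918131 (2711 bp) replicate 2 gave 7.98, and the summit of the replicate 1 peak lay outside the interval. On chromosome 10 at 243015757 to 243017769 (2013 bp) the fold was 11.1 and 5.46. Peaks of such low depth were still called over more than 2000 bp in both libraries. On chromosome 11 at 211274708 to 211276860 (2153 bp) it was 12.1 and 5.98, and on chromosome 1 at 203442835 to 203445368 (2534 bp) it was 10.8 and 8.59, with the summits 30 bp apart.

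The summit of a broad interval lay off centre more often than that of a short one, except among intervals of low fold. Its distance from the centre, in percent of the distance from the centre to an end, had a median of 47.3% in replicate 1 and 47.4% in replicate 2 for broad intervals, against 32.1% and 32.4% for short ones. A summit placed evenly at any base would give 50%. The difference of 15.1 points between the means of library medians was far larger than the spread between libraries (SD 0.0504 for broad and 0.188 for short intervals). At a mean fold of up to 25 the sets were alike, at 38.3% and 40.6% for 110 broad and 38.4% and 38.2% for 6659 short intervals. At 25 to 50 the medians were 45.2% and 46.6% for broad and 31.9% and 31.6% for short intervals. The summit lay more than 50% of the way from the centre to an end in 565 and 578 broad intervals (45.7% and 46.8%), against 21.8% and 21.6% of short ones. It was on the same side of the centre in both libraries in 1171 of the 1235, and on the low-coordinate side in 615 and 613, so neither direction of the chromosome was favoured. In 77.6% of broad and 79.7% of short intervals the summits of the 2 libraries lay within 50 bp of each other. In 49 broad intervals (3.97%) they were over 500 bp apart, which intervals of 500 to 1500 bp have little room for. For 5 broad intervals in replicate 1 and 3 in replicate 2 no summit lay inside.

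Most of the width of a broad interval lay on one side of its summit. The nearer end was a median of 658 and 647.5 bp from the summit in broad intervals, against 284 and 284 bp in short ones. The farther end was 1783 and 1788 bp away in broad intervals, against 575 and 574 bp in short ones. In intervals without shared H3K27me3 bases, the nearer side measured 367 and 366 bp from 1000 to 1500 bp of width and 598 and 599 bp from 2000 to 2500 bp. The farther side measured 793 and 794 bp and then 1579 and 1585 bp. In the 42 widest it was 1084 and 1126 bp on the nearer side and 3553 and 3563 bp on the farther. The farther side exceeds the nearer by definition, so the off-centre measure, which is relative to width, is the one to read. It was 30.2% and 30.3% from 500 to 1000 bp and 60.7% and 57.1% at 4000 bp or more.

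**Figure D2:**
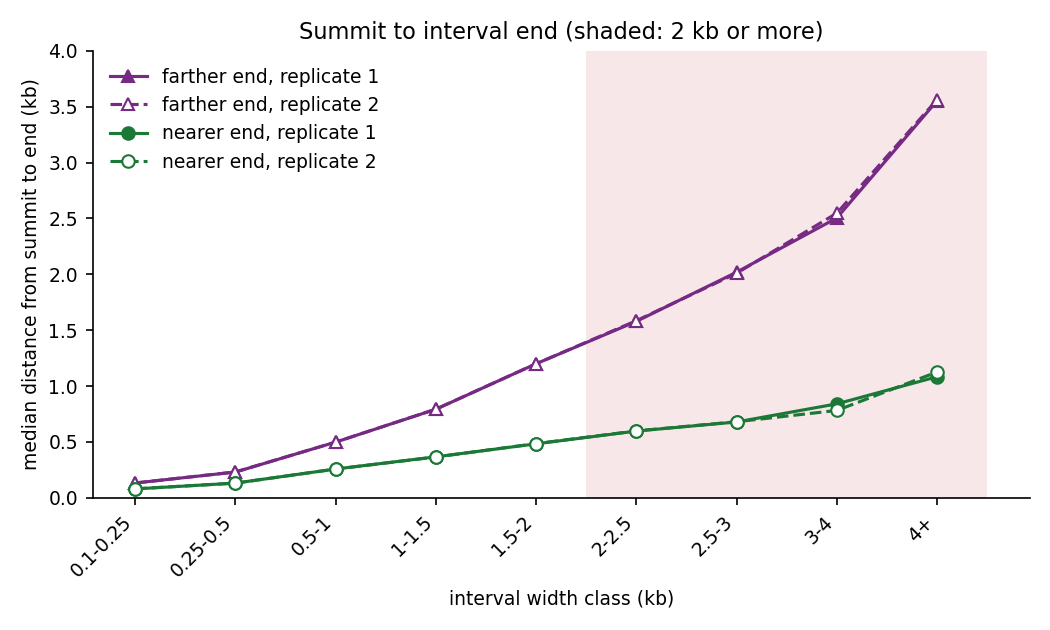
Median distance (kb, y) from the H3K4me3 summit to the farther end (triangles) and the nearer end (circles) of the interval by width class (kb, x), for each library; classes of 2 kb or more are shaded. The farther side reaches 3553 and 3563 bp in the widest class while the nearer side reaches 1084 and 1126 bp.

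Broad intervals had closer H3K4me3 neighbours than short ones, and so did intervals of 100 to 500 bp. Another shared H3K4me3 interval of at least 100 bp lay within 5 kb of 496 broad intervals, which is 40.2% (95% Wilson interval 37.5 to 42.9%), against 5914 short intervals, which is 28.9% (28.2 to 29.5%). The share was higher for broad than for short intervals on 12 of 12 chromosomes. In the peaks of replicate 1 alone it was 45.2% for broad and 33.4% for short intervals, and in those of replicate 2 alone 44.4% and 32.0%, so the gap exceeds the spread between libraries. The median gap was 7029 bp for broad and 11380 bp for short intervals. Within 50 kb of the centre there was a median of 4 other intervals around broad ones and 2 around short ones. No neighbour within 100 kb was found for 71 broad intervals (5.75%) and 11.2% of short ones. By width class, without shared H3K27me3 bases, the share with a neighbour within 5 kb was 60.6% from 100 to 250 bp. It was 50.7% from 250 to 500 bp, 28.2% from 500 to 1000 bp and 29.3% from 1000 to 1500 bp. Wider still, it was 36.6% from 1500 to 2000 bp and 42.1% from 2000 to 2500 bp. All shared intervals together gave 35.1%. Close neighbours were thus not particular to broad intervals.

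The gap was also seen within classes of fold and of place along the chromosome. Among intervals with a mean fold of 50 to 100, a neighbour lay within 5 kb of 39.0% of 444 broad and 24.0% of 5136 short intervals. In the outer 15% of the chromosomes at each end the shares were 45.3% and 35.6%, and in the rest 29.1% and 19.1%. At a mean fold of up to 25 they were closer, 44.5% of 110 broad and 38.2% of 6659 short intervals. The neighbours themselves were small and weak. Where the nearest lay within 1 kb, it had a median width of 392.5 bp and a median mean fold of 6.12 beside 218 broad intervals, against 529.5 bp and 11.4 beside 2258 short ones. Within 5 kb the median was 637 bp and 11.1 beside broad intervals, against 683 bp and 18.0 beside short ones.

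The close neighbours of broad intervals lay mostly on the long side of the summit. On the side of the farther end, 29.5% of broad intervals had a neighbour within 5 kb (362 of 1229 by the summit of replicate 1, and 29.5%, 363 of 1231, by that of replicate 2). On the side of the nearer end, 17.2% and 17.3% had one. In short intervals the order at this distance was the other way, with 15.02% and 15.03% on the farther and 17.3% and 17.1% on the nearer side. The median gap was 12483 and 12391 bp on the farther side of broad intervals and 21646 and 21935 bp on the nearer side. In short intervals these were 23623 and 23595 bp, and 26298 and 26434 bp. Within 20 kb the farther side led in both sets, at 60.5% and 61.0% against 47.2% and 47.0% in broad intervals, and at 46.0% and 46.0% against 44.2% and 44.2% in short ones. The nearer side of broad intervals was thus as often flanked within 5 kb as that of short ones, and the excess of neighbours was on the farther side. With peaks within 1 kb of each other merged, the lead of the farther side over the nearer in broad intervals was 5.85 points, against 12.2 points without merging.

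The same split was seen in subsets. In broad intervals of 3000 bp or more, 30.7% and 30.3% had a neighbour within 5 kb on the farther side and 15.5% and 16.0% on the nearer side. In those below 2500 bp it was 29.9% and 30.3% against 19.9% and 19.4%. In short intervals whose summit lay more than 50% of the way out, a place like that of many broad ones, it was 15.9% and 16.5% on the farther and 18.0% and 18.5% on the nearer side. In shared intervals above 1500 and below 2000 bp, between short and broad, the farther side led by 4.38 and 5.01 points, against 12.2 and 12.2 points in broad intervals. This comparison of sides was chosen after the values were seen.

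**Figure D3:**
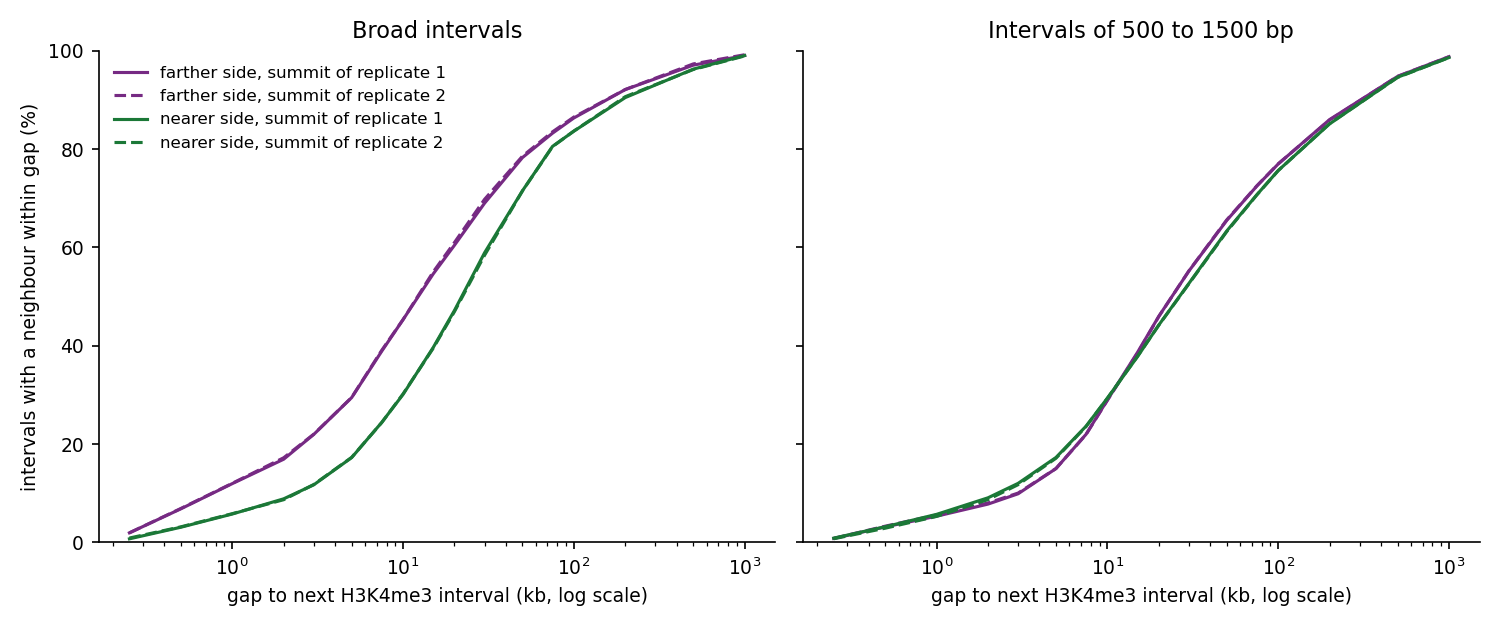
Cumulative share of intervals (%, y) with another H3K4me3 interval within a given gap (kb, log scale, x) on the side of the farther end and of the nearer end, for broad intervals (left) and intervals of 500 to 1500 bp (right); solid and dashed lines take the summit from replicate 1 and 2. At 5 kb the broad curves stand at 29.5% and 17.2%, and the short ones at 15.02% and 17.3%.

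Some broad intervals lay next to each other. Another broad interval was within 5 kb of 43 of them (3.48%), in 18 pairs and 2 longer chains, and within 20 kb of 147 (11.9%), with up to 5 in a chain. The closest pair, on chromosome 5 at 239187540 to 239190003 and at 239190316 to 239192565, was 312 bp apart. One replicate 1 peak spanned both, with its summit in the second, where the fold was 50.3 and 59.2, while replicate 2 gave 19.7 in the first. The next pair, on chromosome 3 at 267214771 to 267217093 and at 267217506 to 267220513, was 412 bp apart. The fold was 52.0 and 99.7 in the first and 100.9 and 104 in the second. Both libraries separated this pair, and its members had similar depth, with 350 and 336 fragments in the first and 332 and 356 in the second. The third pair, on chromosome 8 at 159085700 to 159087962 and at 159088493 to 159090934, was 530 bp apart and unequal, with 276 and 270 fragments in the first and 1187 and 1151 in the second.

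H3K27me3 was rarely found on wide H3K4me3 intervals even before those with it were set aside. Of the 1303 shared intervals of 2000 bp or more, 68 (5.22%, 95% Wilson interval 4.14 to 6.56%) held bases covered in both H3K27me3 libraries, against 1472 of the short intervals (7.18%, 6.84 to 7.55%). This order depended on fold and turned at high fold. Above a mean fold of 100, 23 wide intervals held such bases and 425 did not, while 3217 of 3319 short intervals held none. Below 25, 10 wide intervals held them and 110 did not, while 5791 of 6659 short intervals held none. The 68 resembled the broad intervals in H3K4me3, with a median fold of 75.3 and 63.6 and a median of 259 and 275.5 fragments. They held a median of 854 bp of H3K27me3, 30.7% of the interval, with a range of 53 to 2602 bp. The longest, on chromosome 10 at 183549564 to 183553203 (3640 bp), had a fold of 163 and 121 and 371 bp of H3K27me3. The next, on chromosome 2 at 109719762 to 109723201 (3440 bp), had a fold of 91.6 and 83.6 and was marked over 2180 bp. The third, on chromosome 2 at 139044314 to 139047495 (3182 bp), had a fold of 208 and 132 and 619 bp of H3K27me3.

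A few members touched H3K27me3 in one list. Such bases were found in 44 of the 1235, in 28 by replicate 1 and 18 by replicate 2, with 2 intervals marked at different bases by both. The share was 3.56%, against 2.67% of the 19019 short intervals without shared H3K27me3 bases. The overlap was a median of 293.5 bp. These 44 had a median H3K4me3 fold of 106 and 100.8, higher than the 80.1 and 65.9 of all broad intervals. Among them were the interval of highest fold, on chromosome 3, and that of 2048 bp on chromosome 2 named above, with 196 and 500 bp of H3K27me3 in replicate 1 alone.

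Outside the intervals, H3K27me3 came somewhat closer to broad than to short intervals by the median distance. The nearest shared H3K27me3 interval was a median of 44477 bp away for broad intervals, against 55785 bp for the 19019 short intervals that likewise held no shared H3K27me3 base, a ratio of 0.797. The median was lower for broad intervals on 10 of 12 chromosomes, all but 6 and 12. With the short intervals that held H3K27me3 counted at their distance of 0 or near it, their median was 48143 bp. Within the outer 15% of the chromosomes the medians were 33802 bp for broad and 36044.5 bp for short intervals, and in the rest 105788 and 134821 bp, and the gap was small in the outer zone. Within 5 kb the sets were alike, with H3K27me3 near 91 broad intervals (7.37%) and 6.84% of such short ones. Closer in, the order turned. Within 1 kb it lay near 5 broad intervals (0.405%, 0.173 to 0.944%) and 0.957% of such short ones (0.828 to 1.11%). Within 2 kb the shares were 1.94% and 2.49%.

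H3K9me2 was not detected on the broad intervals. No broad interval held a base of either H3K9me2 list, which sets an upper 95% Wilson bound of 0.310% of the 1235. Such bases were held by 4 short intervals (0.0195%) and by 5 of all 31596 shared H3K4me3 intervals (0.0158%). Their absence was thus not particular to broad intervals. The nearest shared H3K9me2 interval was a median of 596275 bp from broad and 563157 bp from short intervals, a ratio of 1.06, and the broad median was the higher on 6 of 12 chromosomes. H3K9me2 lay within 20 kb of 17 broad intervals (1.38%, 0.861 to 2.19%) and of 297 short ones (1.45%, 1.29 to 1.62%). Against the bases found in either H3K9me2 list, which are far more numerous, the medians were 93929 bp for broad and 76715 bp for short intervals. The distance to H3K9me2 thus had no direction over chromosomes, and 4026 shared H3K9me2 intervals of 100 bp or more limit how finely it can be measured. The closest was 2281 bp from a broad interval on chromosome 3 at 261213124 to 261215188 (2065 bp), which had a fold of 44.9 and 45.5. On chromosome 12 at 5898381 to 5902304 (3924 bp, fold 144 and 77.1) it was 4353 bp away, and on chromosome 3 at 39157386 to 39160022 (2637 bp, fold 107 and 122) 6777 bp.

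**Figure D4:**
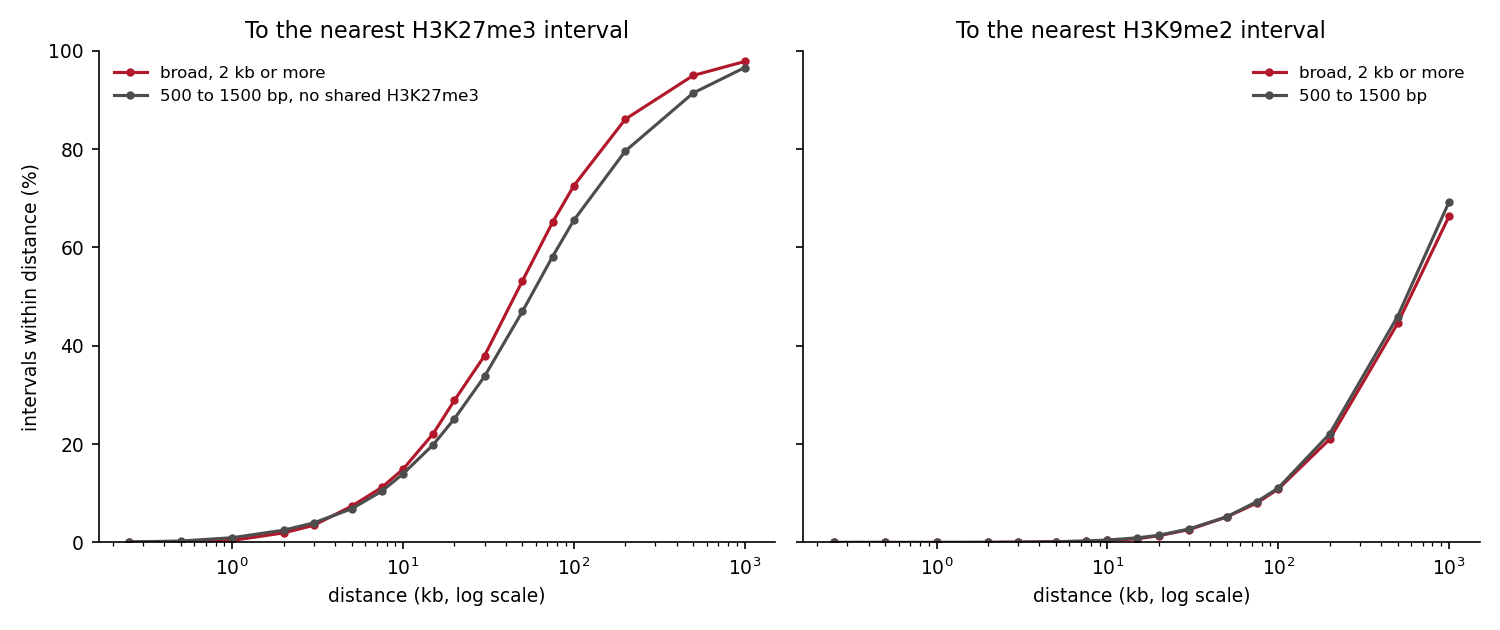
Cumulative share of intervals (%, y) with a shared H3K27me3 interval (left) or H3K9me2 interval (right) within a distance (kb, log scale, x), for broad intervals and for those of 500 to 1500 bp (left panel without those holding shared H3K27me3 bases). The medians are 44477 against 55785 bp for H3K27me3 and 596275 against 563157 bp for H3K9me2.

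Broad intervals lay further toward the chromosome ends than short ones, and so did intervals of 100 to 500 bp. The outer 15% of the span at each end held 843 broad intervals (68.3%, 65.6 to 70.8%), against 59.4% of short ones (58.7 to 60.04%). The share was higher for broad intervals on 11 of 12 chromosomes. The middle 40% held 146 broad intervals (11.8%) and 17.5% of short ones, and the outer 2% at each end held 216 (17.5%) and 14.0%. The gap of 8.89 points varied with fold. At a mean fold of up to 25 it was small, at 66.4% of broad and 64.0% of short intervals, and at 50 to 100 the shares were 65.1% and 55.9%. At 25 to 50 they were 73.0% and 57.6%, and at 100 to 200 they were 67.0% and 59.1%. The gap thus did not rise steadily with fold. It was widest in the highest class of fold, above 200, with 80% of 70 broad and 54.5% of 549 short intervals. Peaks of replicate 1 alone gave 68.1% for broad and 59.7% for short intervals, and those of replicate 2 alone 68.1% and 59.8%. Among intervals without shared H3K27me3 bases, the outer 15% held 66.7% from 100 to 250 bp and 65.4% from 250 to 500 bp. It held 58.7% from 500 to 1000 bp, 59.4% from 1000 to 1500 bp and 64.8% from 1500 to 2000 bp. From 2000 to 2500 bp the share was 66.1%, and at 4000 bp or more 76.2%. Over all shared intervals it was 61.5%. A high share was thus not particular to broad intervals.

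**Figure D5:**
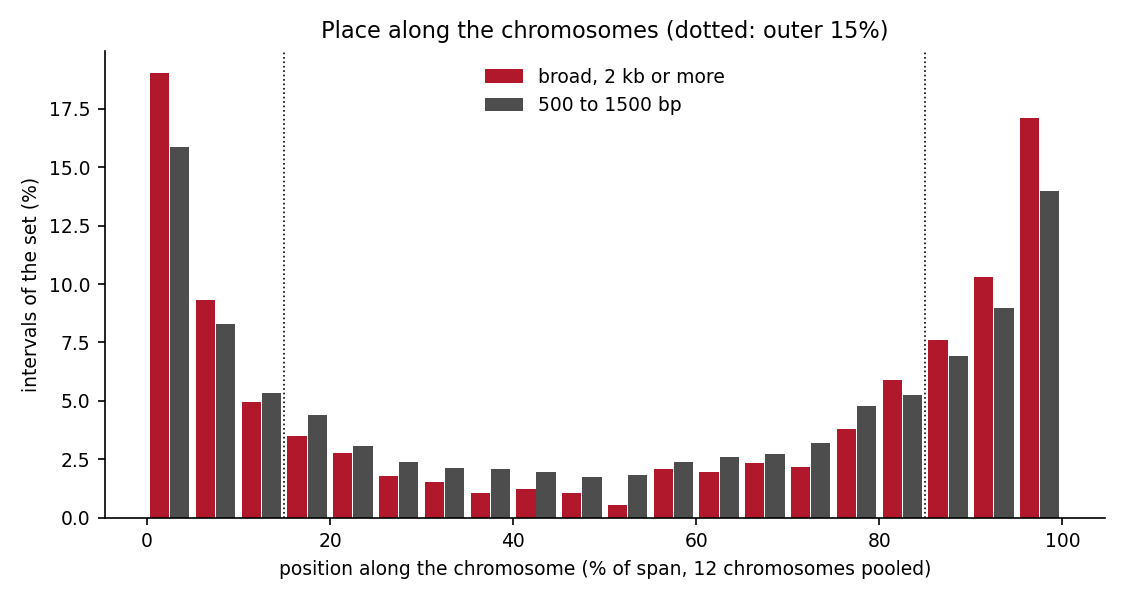
Share of intervals of each set (%, y) in bins of 5% of the chromosome span (x, 12 chromosomes pooled, bars from 0), for broad intervals and those of 500 to 1500 bp; dotted lines bound the outer 15%. Broad intervals lead in the outermost bins, with 19.0% of all broad ones in the first and 17.1% in the last.

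Chromosomes differed in how many broad intervals they held and in this shift. Density was highest on chromosome 2, with 0.902 broad intervals per Mb, and lowest on chromosome 5, with 0.228, against 0.403 over the 3066 Mb of span. Short intervals also differed in density between these 2 chromosomes, with 11.8 per Mb on chromosome 2 and 4.89 on chromosome 5. The share of broad intervals among all shared ones ran from 3.04% on chromosome 5 to 4.83% on chromosome 2. Chromosomes 12 and 3 were close to these ends, at 3.11% and 4.77%. On chromosome 5, 86.2% of 58 broad intervals were in the outer parts, against 61.2% of short ones, a lead of 25.03 points. On chromosome 1 the shares were 45.4% of 141 and 45.6%, and on chromosomes 8 and 12 the lead was 0.970 and 0.342 points, so these 3 showed almost no shift. On chromosome 8, 52.9% of 104 broad intervals had a neighbour within 5 kb, against 35.4% of short ones, and on chromosome 11 27.8% of 72, against 20.2%. Median fold of broad intervals was lowest on chromosome 11, at 60.5 and 52.2. It was highest on chromosome 2 in replicate 1, at 99.8, and on chromosome 3 in replicate 2, at 74.7.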

How the data were processed

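Per the labels' protocols, formaldehyde at 1% fixed the young leaves for 10 min, and reads were 150 bp pairs. deepTools 3.3.0, MACS2 2.2.7.1, BWA 0.7.17 and Trimmomatic 0.38 are listed in the submitters' processing notes. For their settings and the build, the sources used here give nothing. Per the file names, peaks were called in each library with an input. The authors deposited for each peak a fold enrichment (a linear ratio), a −log10 p and q, a score that is 10 times the −log10 q, and a summit. Fold values are the authors' own and describe peaks within a list. The inputs were not analysed here.

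Peaks on sequences named Ca_59Chr were merged where they overlapped or touched, the 2 lists of a mark were intersected, and neighbours shorter than 100 bp were left out. Each interval took the peak of highest fold whose summit lay inside it. The sources used here give no total depth. Fragments over a summit (n) and local background were solved from fold = (n + 1)/(background + 1) and the Poisson p, and n was within 0.01 of a whole number for 100% of peaks. Distances run from edge to edge. The span of a chromosome is the last peak end over all lists. Wilson intervals (95%) cover counting error only. Regions named are the 10 longest, the 5 of highest and the 5 of lowest fold, the 3 on each side of the threshold, the 3 longest left out, the 3 nearest to H3K9me2 and the 3 closest pairs. Members, sets and measures were chosen with earlier results of these data known. Interval operations were tested on simulated data. Python 3.11.15, numpy 2.4.6, scipy 1.17.1, pandas 2.3.3 and matplotlib 3.10.9 were used.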

Additional observations from a re-analysis of the deposited data

Results flagged for a closer look

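Peaks on sequences outside the 12 chromosomes entered no comparison. These lists hold 61 and 113 H3K4me3 peaks there, which form 53 shared intervals on 10 scaffolds. They were singled out only because they lie outside the sequences compared. Of these, 32 were of 500 to 1500 bp and 1 was of 2000 bp or more. The wide one spans 2479 bp on scaffold 50, from 45635 to 48113, with a fold of 28.3 and 14.96 and 68 and 74 fragments over its summit in replicates 1 and 2.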

How the results depend on the processing

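No paired analysis was possible because no result comes from a test. Both sets come from the same 2 libraries, and the values of each library are given side by side. Across the alternatives run for fold, summit place, neighbours, their side, distances and distal share, 1 turned a direction: with members of 3000 bp or more, the distance to H3K9me2 was 0.878 times that of short intervals, and the cause was not tested. Outside these alternatives, in the class of mean fold from 25 to 50, the distance to H3K9me2 was 505188 bp for broad and 577546 bp for short intervals. Sizes moved by more than the SD between libraries in many settings.

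Merging peaks within 1 kb gave 2086 broad intervals, a fold ratio of 1.54, a summit difference of 20.6 points, a neighbour difference of 9.21 points, distance ratios of 0.776 (H3K27me3) and 1.09 (H3K9me2), a distal difference of 9.58 points and a lead of the farther side of 5.85 points. Members of 3000 bp or more (240) gave a fold ratio of 2.2005, a summit difference of 19.8, neighbours 11.97, H3K27me3 0.756, 13.1 points distal and a lead of 14.7 points. A −log10 q of at least 10 gave 7.95 points for neighbours, H3K27me3 0.781, H3K9me2 1.06, 9.27 distal and a lead of 8.18. H3K27me3 of either replicate leaving an interval out gave 1.06 (H3K9me2) and 8.56 distal.

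Short intervals of 1000 to 1500 bp gave a fold ratio of 1.296, a summit difference of 10.3, neighbours 10.5, H3K27me3 0.783 and distal 8.26. Short intervals without H3K27me3 gave a fold ratio of 1.76, H3K9me2 1.06 and distal 9.33, and with or without it H3K27me3 0.924. A mean fold of 50 to 100 gave a summit difference of 17.2, neighbours 14.996, H3K27me3 0.726, H3K9me2 1.07, distal 9.23 and a lead of 14.5. Intervals of either replicate gave 0.814 for H3K27me3 and 1.22 for H3K9me2. Neighbours within 2 kb gave 8.10 points, the outer 10% of chromosomes 8.63 and the outer 25% 7.33.

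Single replicates gave 1525 to 1528 broad intervals, a fold ratio of 1.87 to 1.97, a summit difference of 15.7 to 16.7, neighbours 11.8 to 12.4, H3K27me3 0.827 to 0.829, H3K9me2 1.141 to 1.142, distal 8.30 to 8.44 and a lead of 12.3 to 12.9. The comparison of sides and its alternatives were added after seeing the data. Weak wide intervals rest on 25 fragments or more over the summit.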
